A study of Homo sapiens with 6 samples.

Results

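The kinetochore and spindle checkpoint set comprised 44 genes of the inner and outer kinetochore, the spindle assembly checkpoint and the chromosomal passenger complex. They were chosen by symbol from a list of named subunits, and all 44 were found among the 28278 symbols counted and passed the filter on low counts. RNA was sequenced from HCT116, an established human line from a colon carcinoma, in 2 groups of 3 libraries. The shTRIM21 cells carried an shRNA against TRIM21, a ubiquitin ligase that binds antibodies in the cytosol, and the shControl cells carried a scrambled shRNA in a TRIM21 wild-type background. Both shRNAs came by lentivirus, and cells of both groups were put under 5 µg/ml puromycin 36 h after infection for 2 to 3 weeks and are labelled day 21. The replicates are labelled biological with no mention of separate cultures, and p-values then measure a spread between samples that may be technical. The labels do not say how many shRNA sequences were used, nor whether the selected cells were pools or clones.

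The kinetochore is the protein assembly that joins each chromosome to spindle microtubules. At its base sits the histone variant CENP-A with a constitutive centromere network, and on this the KNL1, MIS12 and NDC80 complexes form the microtubule-binding face. Unattached kinetochores recruit the checkpoint kinases and the MAD and BUB proteins, which hold back anaphase, while the chromosomal passenger complex with Aurora B corrects faulty attachments. Many of these genes are transcribed mainly in late S phase, G2 and mitosis, so that in bulk RNA a smaller share of cells in those phases and less RNA per cell cannot be told apart.

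Library totals ran from 22656160 to 27123657 counts. TRIM21 itself, checked first, had 8.83, 8.18 and 6.68 CPM (the count scaled to library size) in shTRIM21 replicates 1 to 3 and 11.8, 11.7 and 15.8 CPM in shControl, a log2 fold change of -0.73 (SE 0.17, adjusted p = 0.0124, edgeR's quasi-likelihood test). This leaves 60.3% of the shControl level. The call did not hold when shTRIM21 replicate 3 was left out (-0.62, adjusted p = 0.0734) or replicate 3 of both groups (-0.45, 0.114). It was also lost under edgeR's glmTreat, which asks for more than a 1.2-fold change (adjusted p = 0.118). Of the libraries, shControl replicate 3 stood apart on the second principal component (23.4% of the variance), at -31.8 against 5.87 and 12.2 for the other shControl libraries, and it had the lowest share of ribosomal RNA, 6.69%. In shTRIM21 replicate 3 was likewise lowest, at -14.7 against 22.9 and 5.49, with 9.55% ribosomal RNA. Of 10 colon epithelial markers 5 reached 5 CPM, namely KRT18, KRT8, VIL1, EPCAM and CDX2, whereas CDH1, KRT19, CLDN4, ELF3 and ESRP1 did not. Their summed level was 170 to 178 CPM in shTRIM21 and 184 to 197 CPM in shControl libraries. Fibroblast, leukocyte and endothelial markers each summed to at most 0.353 CPM in any library, with COL1A2, COL3A1, DCN, LUM, LYZ and CDH5 among those at 0 throughout.

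Of the 44 kinetochore and checkpoint genes 10 fell in the shTRIM21 cells, 0 rose and 34 did not pass the test at an adjusted p of 0.05 (edgeR's quasi-likelihood test, Benjamini-Hochberg over all 14002 genes tested). Over all tested genes 4.66% fell and 4.43% rose, 9.08% in all. Without shControl replicate 3, 9 members fell and CENPH rose. The lowest count that fell with 1 library left out was 6, without shTRIM21 replicate 1. At an unadjusted p under 0.05 the set had 17 members, where 22.8% of all tested genes were under it. DESeq2 and limma-voom likewise called 0 members higher. Those that fell were KNL1, CENPE, CDCA8, CENPA, BUB1, TTK, SGO2, ZWILCH, BUB1B and CENPF, and their levels in shTRIM21 cells were 66.7% to 85.7% of the shControl level. The median log2 fold change of the 44 genes was -0.12, against 0.01 over all tested genes, and 35 of them had a negative value. For 17 of the 44 members all 3 shTRIM21 values were under all 3 shControl values, where this held for 13.9% of all tested genes, and for 1 member, CENPH, they were all above, where it held for 14.1%.

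Summed over the 44 genes, the level was 3313, 3451 and 3473 CPM in shTRIM21 replicates 1 to 3 and 3894, 3842 and 4088 CPM in shControl, so that the groups did not overlap. The mean was 3413 ± 86.9 CPM in shTRIM21 and 3941 ± 130 CPM in shControl (SD, n = 3 each). The sum is weighted by abundant genes and includes those that fell. Among them are CENPF, with means of 540 CPM in shTRIM21 and 630 in shControl, and KNL1, with 182 and 272.

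**Figure D1:**
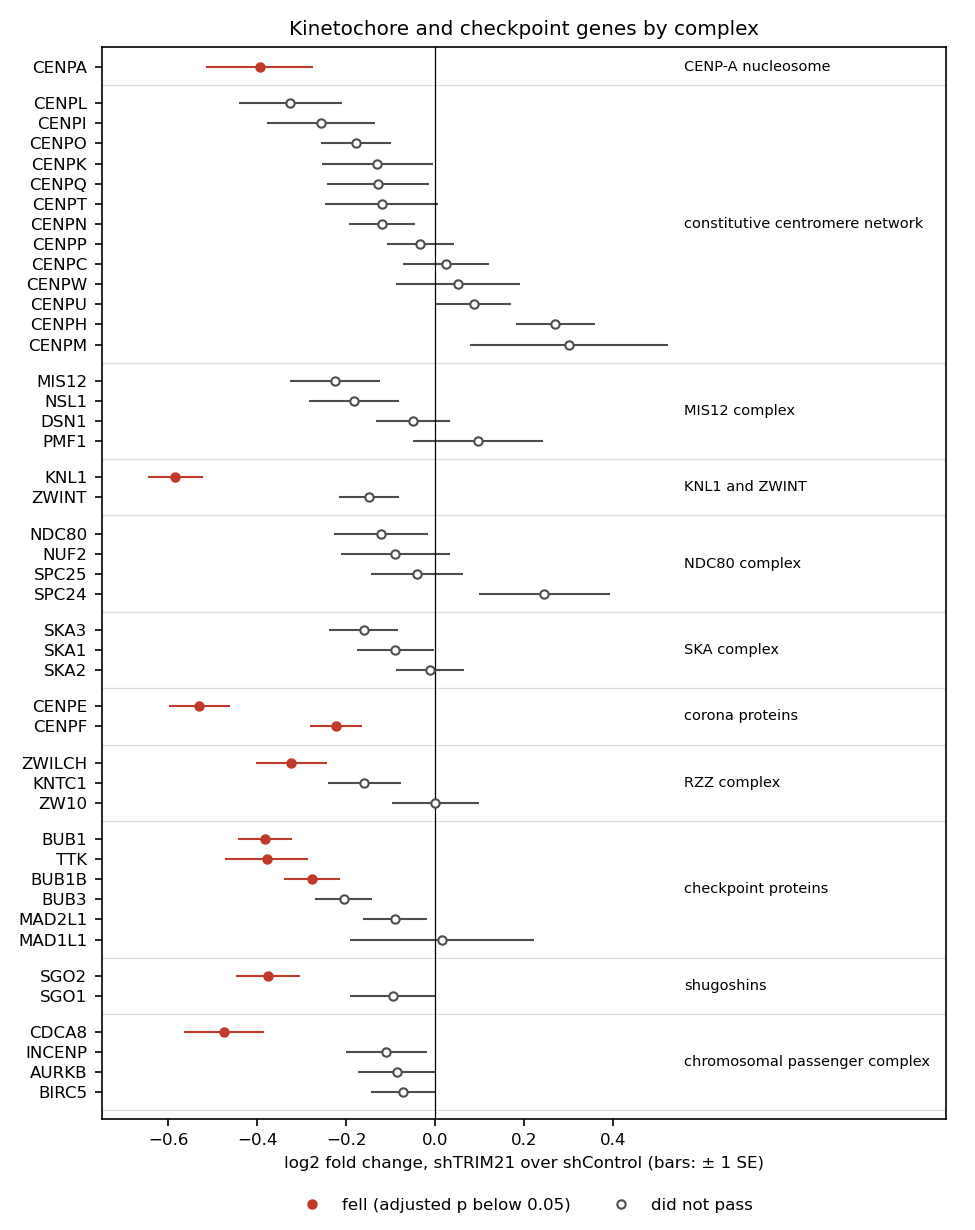
Log2 fold change of each of the 44 genes, shTRIM21 over shControl, grouped by complex, with bars of 1 standard error (n = 3 libraries per group). Filled red points mark the 10 genes that fell and open points the 34 that did not pass. The filled points lie at CENPA, KNL1, CENPE, CENPF, ZWILCH, BUB1, BUB1B, TTK, SGO2 and CDCA8. In the centromere network and the MIS12, NDC80 and SKA complexes 0 points are filled, where 4.66% of all tested genes fell.

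The constitutive centromere network and the MIS12, NDC80 and SKA complexes together have 24 members in the set, of which 0 fell and 0 rose, with a median log2 fold change of -0.09. Over all tested genes 4.66% fell and 4.43% rose, so that 0 of 24 is near the share over all genes. These shares also stand beside the counts by complex given below. Of these 24, 5 were at an unadjusted p under 0.05 by edgeR, a share near the 22.8% over all tested genes. The other roles have 20 members, of which 10 fell, with a median of -0.21. This division was drawn after the values were seen and was not tested. The genes that fell had a median shControl level of 134 CPM and a median transcript length of 3843 bases, against 40.8 CPM and 2393 bases for the 34 that did not pass. Their median standard error was 0.07 on the log2 scale, against 0.10 for the others. Median GC content was 39.5% in the genes that fell and 41.9% in the others. When the fit carried a GC and length offset, 15 members fell and CENPH rose. The part of level, length and composition in which members were called was not tested further.

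Promoters are shown for members in which the pattern can be read against sequence. The CHR element (cell cycle genes homology region, letters TTTGAA) and CCAAT boxes are known elements in the promoters of G2 and mitosis genes. Only these exact letters were searched, so other forms of either element would be missed. RefSeq promoter windows (GRCh38.p14, 250 bases before to 50 after an annotated transcript start) were at hand for 36 of the 44 members. CENPH, CENPL, CENPM, KNL1, KNTC1, BUB3, TTK and BIRC5 had none in the table. Both strands were searched. The CHR letters occurred in 44.4% of these 36 members, against 14.02% of 10513 tested genes with a window. Within the last 40 bases before the start or the 50 after it they occurred in 14 of 36 members (38.9%), against 3.96% of tested genes.

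Members of both kinds held the CHR letters. They were near the start in 4 of 8 that fell, namely CENPA, CENPF, BUB1B and CDCA8, and in 10 of 28 that did not pass. CCAAT was found anywhere in the window in 6 of 8 members that fell and in 18 of 28 that did not pass, against 43.2% of tested genes. Near the start it was found in 4 of 8 that fell and in 6 of 28 that did not pass, against 10.9% of tested genes. The difference between the 2 kinds of members was not tested. The 180 bases from 130 before to 50 after the start are printed below for the 4 members that fell with the CHR letters, and for INCENP and SPC25, which hold the same letters and did not pass, so that both kinds can be set side by side. Capitals mark TTTGAA and CCAAT or their reverse complements, and in CDCA8 the CHR letters and a CCAAT on the opposite strand overlap. The windows are CDCA8 chr1:37692386-37692565 on the plus strand, CENPA chr2:26785926-26786105 on the plus strand, BUB1B chr15:40160939-40161118 on the plus strand, CENPF chr1:214603065-214603244 on the plus strand, INCENP chr11:62123881-62124060 on the plus strand, SPC25 chr2:168890381-168890560 on the minus strand.

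CDCA8: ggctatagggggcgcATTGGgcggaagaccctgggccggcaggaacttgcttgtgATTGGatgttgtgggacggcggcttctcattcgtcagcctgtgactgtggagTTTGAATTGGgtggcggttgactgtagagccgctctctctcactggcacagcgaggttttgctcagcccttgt
CENPA: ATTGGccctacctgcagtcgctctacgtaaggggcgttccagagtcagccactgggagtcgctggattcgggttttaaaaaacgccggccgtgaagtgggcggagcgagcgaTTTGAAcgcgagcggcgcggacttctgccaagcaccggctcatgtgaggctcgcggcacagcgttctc
BUB1B: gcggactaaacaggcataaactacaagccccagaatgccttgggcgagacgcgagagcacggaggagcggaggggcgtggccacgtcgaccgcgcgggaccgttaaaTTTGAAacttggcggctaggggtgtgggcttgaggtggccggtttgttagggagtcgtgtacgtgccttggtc
CENPF: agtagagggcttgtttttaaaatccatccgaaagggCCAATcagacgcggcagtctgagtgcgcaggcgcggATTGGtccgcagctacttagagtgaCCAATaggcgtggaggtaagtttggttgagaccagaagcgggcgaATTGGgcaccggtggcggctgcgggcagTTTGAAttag
INCENP: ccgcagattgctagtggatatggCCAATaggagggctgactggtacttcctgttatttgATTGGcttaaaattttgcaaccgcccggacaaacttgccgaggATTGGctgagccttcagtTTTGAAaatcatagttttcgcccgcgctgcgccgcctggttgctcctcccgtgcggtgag
SPC25: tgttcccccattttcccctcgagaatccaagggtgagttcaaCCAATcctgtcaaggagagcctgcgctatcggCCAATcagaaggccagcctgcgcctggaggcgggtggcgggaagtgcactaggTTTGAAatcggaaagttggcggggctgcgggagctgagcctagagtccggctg

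In CDCA8 and BUB1B the CHR letters began at position -23, in CENPA at -18 and in CENPF at 40, counted from 0 at the annotated start. In INCENP and SPC25 they began at -10 and -3. A match of letters is a description and not a shown binding site.

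**Figure D2:**
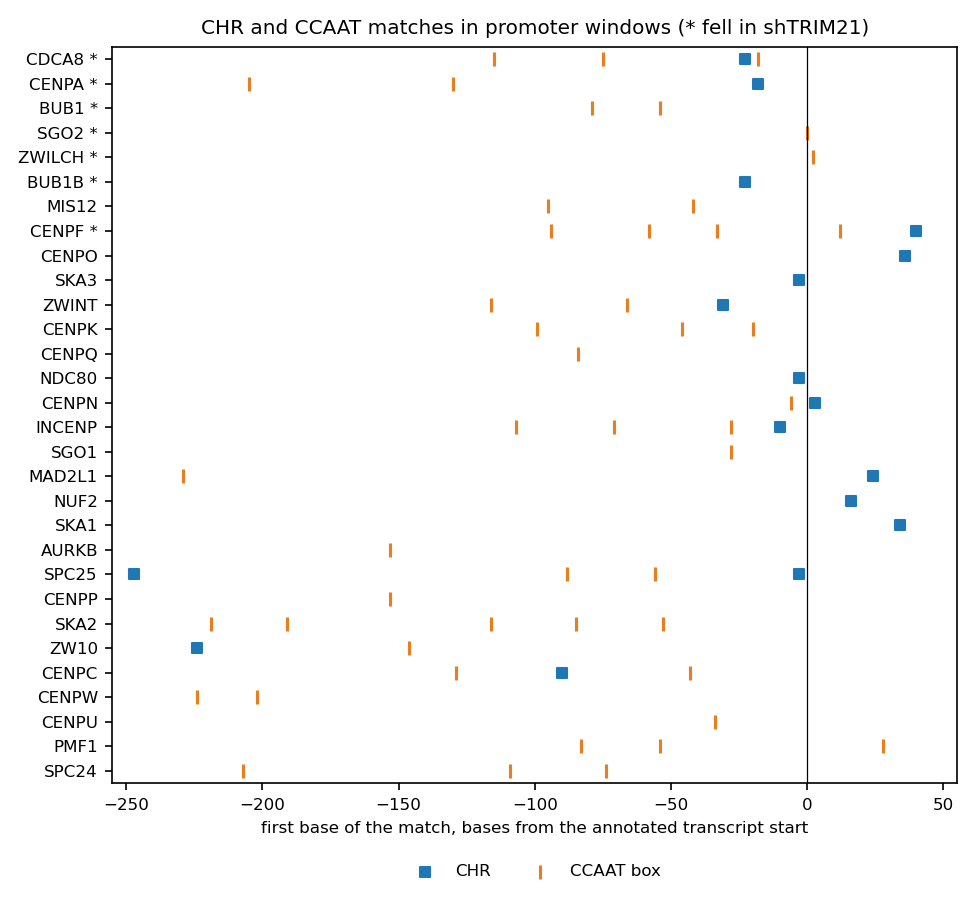
Positions of the CHR letters (blue squares) and of CCAAT (orange ticks) on either strand in the promoter windows of members with a match, in bases from the annotated transcript start. Genes are ordered by fold change with the lowest on top, and an asterisk marks those that fell. For genes with several windows the one with the lowest coordinate is drawn. CHR matches cluster near the start both in genes that fell, such as CDCA8 and CENPA, and in genes that did not pass, such as NDC80 and SKA3.

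CENPA, the histone H3 variant that marks the centromere, had 20.6, 29.02 and 24.3 CPM in shTRIM21 replicates 1 to 3 and 30.1, 32.6 and 34.3 CPM in shControl. All shTRIM21 libraries were lower, but shTRIM21 replicate 2 came close to the lowest control. The log2 fold change was -0.39 (SE 0.12, adjusted p = 0.046, edgeR's quasi-likelihood test). The call was lost in 8 of 18 alternatives. Leaving out shTRIM21 replicate 1 (adjusted p = 0.198) or 3 (0.14) ended it, as did leaving out shControl replicate 1 (0.0622), 2 (0.1) or 3 (0.0781), replicate 3 of both groups (0.127), and upper-quartile scaling (0.0545). CENPA lies on chromosome 2 at 26764289 to 26801067 (plus strand, GRCh38), and 6.96% of its exon bases are shared with SLC35F6 on the same strand.

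The 13 genes of the constitutive centromere network, which sits on CENP-A nucleosomes throughout the cell cycle, had log2 fold changes from -0.33 to 0.30, and 0 passed. Over all tested genes 9.08% passed. CENPL, a partner of CENP-N, had 20.2, 17.2 and 20.2 CPM in shTRIM21 and 23.5, 24.2 and 24.6 CPM in shControl, with no overlap between the groups (-0.33, SE 0.12, adjusted p = 0.0882, edgeR). CENPH, of the CENP-H, CENP-I, CENP-K and CENP-M group, lay on the other side, at 43.1, 47.2 and 49.2 CPM in shTRIM21 and 40.2, 36.5 and 38.9 CPM in shControl (0.27, SE 0.09, adjusted p = 0.0658, edgeR). It was called higher with upper-quartile scaling (adjusted p = 0.045), without shControl replicate 3 (0.0482) and under the GC and length offset (0.048).

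The partners of CENPH did not pass either and lay on both sides of 0. CENPI had a log2 fold change of -0.26 (SE 0.12), CENPK -0.13 (SE 0.12) and CENPM 0.30 (SE 0.22) (adjusted p = 0.214, 0.585 and 0.458, edgeR). CENPM was the lowest of the set in CPM, at 6.51, 5.21 and 5.99 CPM in shTRIM21 and 5.60, 3.68 and 5.09 CPM in shControl, and its large SE limits what can be seen. The other network genes were CENPO at -0.18 (SE 0.08), CENPQ at -0.13 (SE 0.11), CENPT at -0.12 (SE 0.13), CENPN at -0.12 (SE 0.07), CENPP at -0.03 (SE 0.07), CENPC at 0.02 (SE 0.10), CENPW at 0.05 (SE 0.14) and CENPU at 0.09 (SE 0.08) on the log2 scale. Opposite-strand genes share 38.0% of the exon bases of CENPP (IPPK), 27.0% of those of CENPO (ADCY3), 12.8% of those of CENPN (CMC2), 11.7% of those of CENPU (PRIMPOL) and 10.8% of those of CENPT (TSNAXIP1), and the strand setting of the counting is not given. With the GC and length offset, CENPL (-0.34) and CENPO (-0.20) were called lower.

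KNL1, the scaffold that binds microtubules and offers the docking sites for BUB1 and BUB3, had the largest drop of the 44 genes. It stood at 181, 184 and 180 CPM in shTRIM21 replicates 1 to 3 and at 284, 276 and 257 CPM in shControl. The 3 shTRIM21 values were close together and far below the lowest control. The log2 fold change was -0.58 (SE 0.06, adjusted p = 6.65e-06, edgeR's quasi-likelihood test), which leaves 66.7% of the control level, and the call held in all 18 alternative settings, from -0.62 to -0.48. The gene lies on chromosome 15 at 40594020 to 40664342 (plus strand, GRCh38) and shares no annotated exon with another gene. ZWINT, which binds KNL1 and links it to the RZZ complex, had 96.2, 96.3 and 90.01 CPM in shTRIM21 and 107, 106 and 100 CPM in shControl. These groups did not overlap either, but the difference of -0.15 (SE 0.07) did not pass (adjusted p = 0.201, edgeR), and it was called lower under the GC and length offset (-0.18).

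The MIS12 complex, which ties the centromere network to the outer kinetochore, had 0 of 4 members past the threshold, where 9.08% of all tested genes passed. MIS12 had 46.5, 49.6 and 51.2 CPM in shTRIM21 and 48.1, 57.4 and 66.6 CPM in shControl, and the groups overlapped, with shControl replicate 1 inside the shTRIM21 range. Its log2 fold change was -0.22 (SE 0.10), that of NSL1 -0.18 (SE 0.10), that of DSN1 -0.05 (SE 0.08) and that of PMF1 0.10 (SE 0.15). PMF1 shares 23.3% of its exon bases with the read-through gene PMF1-BGLAP, whose reads cannot be told from its own there.

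The NDC80 complex makes the main grip of the kinetochore on microtubules, and 0 of its 4 genes passed, against 9.08% of all tested genes. NDC80 had 27.9, 28.98 and 29.2 CPM in shTRIM21 and 29.04, 28.97 and 35.5 CPM in shControl. Its partner NUF2 had 34.0, 37.8 and 41.4 CPM in shTRIM21 and 34.8, 35.7 and 49.7 CPM in shControl. In both genes the groups overlapped and shControl replicate 3 was the highest library, with log2 fold changes of -0.12 (SE 0.11) and -0.09 (SE 0.12). Without shControl replicate 3 NUF2 was at 0.10. SPC25 stood at -0.04 (SE 0.10) and SPC24, its partner in the centromere-facing dimer, at 0.25 (SE 0.15), with 20.5, 14.5 and 15.4 CPM in shTRIM21 and 13.2, 14.5 and 14.8 CPM in shControl.

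The SKA complex, which helps NDC80 hold on to shortening microtubules, also had 0 of 3 members past the threshold, against 9.08% of all tested genes. SKA3 had a log2 fold change of -0.16 (SE 0.08), SKA1 of -0.09 (SE 0.09) and SKA2 of -0.01 (SE 0.08). In SKA3 the lowest control, 127 CPM in replicate 2, lay within the shTRIM21 range of 120 to 129 CPM. For SKA2 the direction was not fixed, as it was positive in 6 of 18 alternatives.

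CENPE and CENPF, the 2 genes grouped here as corona proteins, both fell. CENPE, the kinesin that carries chromosomes to the spindle equator, had 85.4, 95.5 and 91.7 CPM in shTRIM21 replicates 1 to 3 and 125, 136 and 132 CPM in shControl. The highest shTRIM21 library stayed well under the lowest control, and the log2 fold change was -0.53 (SE 0.07, adjusted p = 7.67e-05, edgeR's quasi-likelihood test). The call held in all 18 alternatives, from -0.57 to -0.42. CENPE lies on chromosome 4 at 103105806 to 103198409 (minus strand, GRCh38). CENPF, a large coiled-coil protein of the nuclear matrix and outer kinetochore, was the most abundant of the 44 genes, with 537, 539 and 544 CPM in shTRIM21 and 634, 623 and 633 CPM in shControl.

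The CENPF groups were tight and clearly apart, yet the difference was the smallest among the genes that fell, at -0.22 (SE 0.06, adjusted p = 0.0204, edgeR's quasi-likelihood test). Its call ended without shTRIM21 replicate 1 (adjusted p = 0.0549), 2 (0.0909) or 3 (0.0912) and without shControl replicate 1 (0.0931) or 2 (0.0608), with fold changes of -0.23 to -0.21 when 1 library was left out. Its transcript is the longest of the set, at 10307 bases, and under the GC and length offset the value was -0.13 (adjusted p = 0.0151). CENPF lies on chromosome 1 at 214603195 to 214664588 (plus strand, GRCh38).

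**Figure D3:**
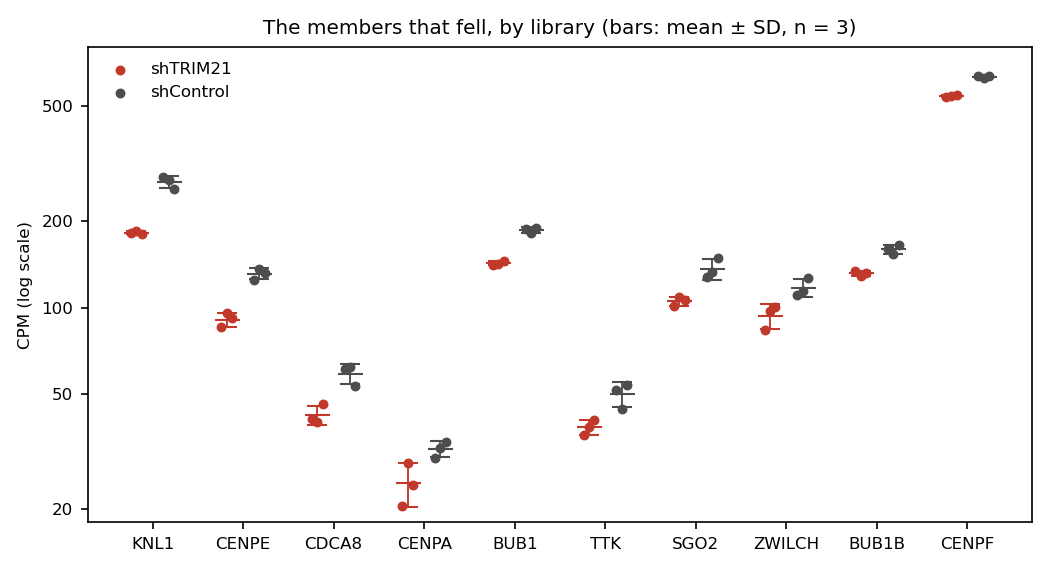
CPM (log scale) of the 10 genes that fell, in each of the 3 shTRIM21 libraries (red, left of each pair) and the 3 shControl libraries (grey, right), with bars of the mean ± SD. Genes run from the largest drop, KNL1, to CENPF, in order of fold change. In each gene all red points lie below all grey points, most narrowly in CENPA.

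The RZZ complex brings the checkpoint proteins and dynein to unattached kinetochores. Of its 3 subunits 1 fell. ZWILCH had 83.3, 97.1 and 100 CPM in shTRIM21 and 111, 114 and 126 CPM in shControl, without overlap. It fell by 0.32 on the log2 scale (SE 0.08, adjusted p = 0.0154, edgeR's quasi-likelihood test), a call lost without shTRIM21 replicate 1 (-0.25, adjusted p = 0.0817). ZWILCH lies on chromosome 15 at 66504959 to 66550128 (plus strand), where LCTL on the opposite strand shares 7.61% of its exon bases. KNTC1, the large subunit, had a log2 fold change of -0.16 (SE 0.08), and ZW10, which also works in membrane traffic, had one of 0.00 (SE 0.10) with 36.1, 36.4 and 30.9 CPM in shTRIM21 and 34.1, 33.3 and 35.9 CPM in shControl.

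Among the 6 checkpoint proteins 3 fell. BUB1, the kinase that docks on KNL1 and marks histone H2A for shugoshin, had 140, 142 and 145 CPM in shTRIM21 and 187, 181 and 189 CPM in shControl. Both groups were tight and well separated, with a log2 fold change of -0.38 (SE 0.06, adjusted p = 0.000548, edgeR's quasi-likelihood test). BUB1 lies on chromosome 2 at 110637698 to 110678114 (minus strand, GRCh38).

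BUB1B, which encodes BubR1 of the mitotic checkpoint complex, had 134, 128 and 132 CPM in shTRIM21 and 160, 153 and 164 CPM in shControl. It fell by 0.28 (SE 0.06, adjusted p = 0.0097, edgeR's quasi-likelihood test), and the call ended without shTRIM21 replicate 2 (adjusted p = 0.0631) or 3 (0.052). It lies on chromosome 15 at 40161023 to 40221136 (plus strand), and 10.2% of its exon bases are shared with the read-through gene BUB1B-PAK6. BUB3, the adaptor of both BUB kinases, had 301, 332 and 333 CPM in shTRIM21 and 368, 352 and 393 CPM in shControl. The groups did not overlap, and the difference of -0.21 (SE 0.06) missed the threshold narrowly (adjusted p = 0.0538, edgeR), passing in 9 of 18 alternatives, DESeq2 (0.0176) and limma-voom (0.0436) among them.

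TTK, the MPS1 kinase that phosphorylates KNL1 to start checkpoint signalling, had 36.1, 38.7 and 40.6 CPM in shTRIM21 and 51.7, 44.4 and 53.9 CPM in shControl. It fell by 0.38 (SE 0.09, adjusted p = 0.0163, edgeR's quasi-likelihood test). Leaving out shTRIM21 replicate 1 (adjusted p = 0.0715) or 2 (0.0631) or shControl replicate 1 (0.0679) ended the call. TTK lies on chromosome 6 at 80003887 to 80042527 (plus strand, GRCh38). The MAD genes did not pass. MAD2L1, the protein that binds CDC20, had a log2 fold change of -0.09 (SE 0.07), with 228 to 261 CPM in shTRIM21 and 243 to 289 CPM in shControl. Its kinetochore receptor MAD1L1 was at 0.02 (SE 0.21) and about 6 CPM in both groups, 6.14 ± 0.762 in shTRIM21 and 6.09 ± 1.05 in shControl (SD, n = 3 each).

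Of the shugoshins, which shield centromeric cohesin, SGO2 fell and SGO1 did not pass. SGO2 had 101, 109 and 106 CPM in shTRIM21 and 127, 132 and 149 CPM in shControl, a log2 fold change of -0.38 (SE 0.07, adjusted p = 0.0028, edgeR's quasi-likelihood test). SGO1 had 36.6, 43.0 and 36.7 CPM in shTRIM21 and 38.8, 44.4 and 41.1 CPM in shControl, with overlap and a value of -0.10 (SE 0.10). SGO2 lies on chromosome 2 at 200510008 to 200583782 (plus strand), and 17.7% of the exon bases of SGO1 are shared with its antisense gene SGO1-AS1.

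In the chromosomal passenger complex 1 of 4 genes fell. CDCA8, which encodes borealin, the subunit that helps target the complex to centromeres, had 41.1, 40.03 and 46.2 CPM in shTRIM21 and 61.4, 62.3 and 53.5 CPM in shControl. The log2 fold change was -0.47 (SE 0.09, adjusted p = 0.00253, edgeR's quasi-likelihood test), and the gene lies on chromosome 1 at 37692418 to 37709719 (plus strand, GRCh38). Its partners did not pass. The scaffold INCENP had a log2 fold change of -0.11 (SE 0.09), the kinase AURKB of -0.09 (SE 0.09) and BIRC5, or survivin, of -0.07 (SE 0.07). AURKB was called lower (-0.22, adjusted p = 0.0462) under the GC and length offset.

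Ratios between 2 genes of a group within a library do not depend on how libraries were scaled. They were formed for each group from the genes with the lowest and the highest fold change. This choice fixed their direction and favoured separation of shTRIM21 from shControl, so they are given without a test. The count of KNL1 per count of ZWINT was 1.88, 1.91 and 2.00 in shTRIM21 replicates 1 to 3 and 2.66, 2.60 and 2.57 in shControl. These values did not overlap, with a mean ratio in shTRIM21 at 74.0% of the shControl mean. CDCA8 per BIRC5 was 0.613, 0.5604 and 0.685 in shTRIM21 and 0.837, 0.885 and 0.738 in shControl. CENPE per CENPF, both of which fell, was 0.159, 0.177 and 0.169 in shTRIM21 and 0.197, 0.219 and 0.209 in shControl, and the groups did not overlap. SGO2 per SGO1 averaged 2.72 ± 0.182 in shTRIM21 and 3.30 ± 0.323 in shControl (SD, n = 3 each). NDC80 per SPC24, MIS12 per PMF1 and BUB1 per MAD1L1 overlapped between the groups. The other pairs did not, CENPL per CENPM, SKA3 per SKA2 and ZWILCH per ZW10 among them.

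**Figure D4:**
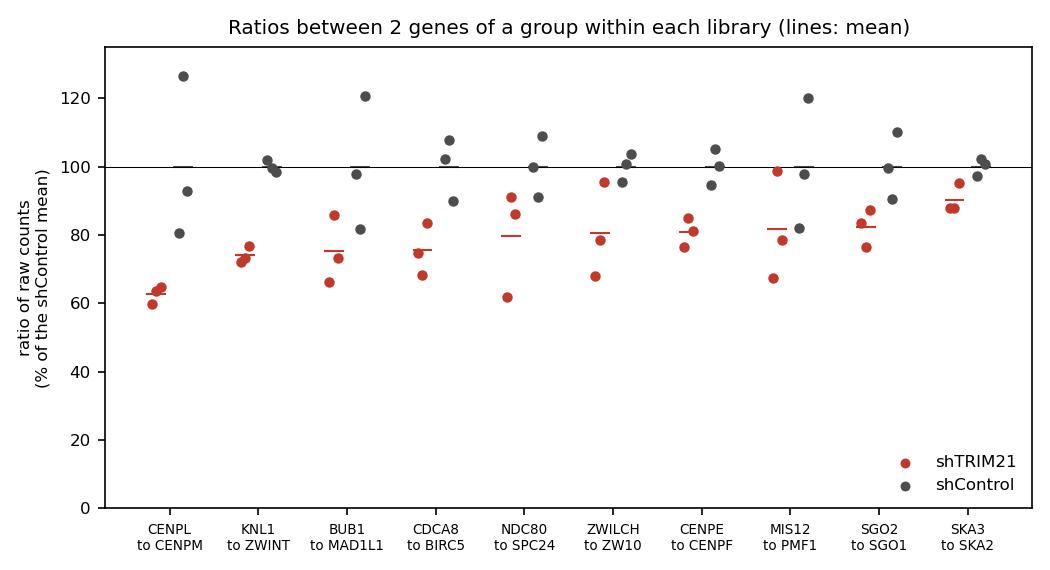
Ratio of raw counts of 2 genes of the same group within each library, as a percentage of the shControl mean, for shTRIM21 (red, left of each pair) and shControl (grey, right), with lines at the means. In each pair the gene with the lowest fold change is set over the one with the highest. KNL1 to ZWINT is the tightest, with shTRIM21 at 74.0% of shControl.

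Levels of different genes can be compared only per length, here as CPM per kilobase of the annotated principal transcript, which need not be the form these cells make. On that scale CENPF was highest in shControl, at 52.4 ± 0.330 in shTRIM21 and 61.1 ± 0.615 in shControl (SD, n = 3 each). ZWINT followed at 50.3 ± 1.93 in shTRIM21 and 55.8 ± 1.92 in shControl, and next to it SKA2 at 53.0 ± 1.86 and BUB1 at 40.6 ± 0.649 in shTRIM21, with 53.4 ± 6.22 and 52.9 ± 1.14 in shControl. In shControl ZWINT and BUB1 lay within the SD of SKA2, but differed from each other by more than the SD of either. MAD1L1 was lowest, at 2.05 ± 0.255 in shTRIM21 and 2.04 ± 0.349 in shControl. Within the NDC80 complex SPC25, NUF2 and NDC80 lay between 14.4 and 20.5 CPM per kilobase in shControl, while SPC24 was at 7.26 ± 1.41 in shTRIM21 and 6.12 ± 0.369 in shControl. KNL1 stood at 19.0 ± 0.225 CPM per kilobase in shTRIM21, close to DSN1 (17.1 ± 0.358) and MIS12 (18.3 ± 0.895), and at 28.4 ± 1.42 in shControl, above DSN1 (17.7 ± 0.0913) and MIS12 (21.3 ± 3.45).

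**Figure D5:**
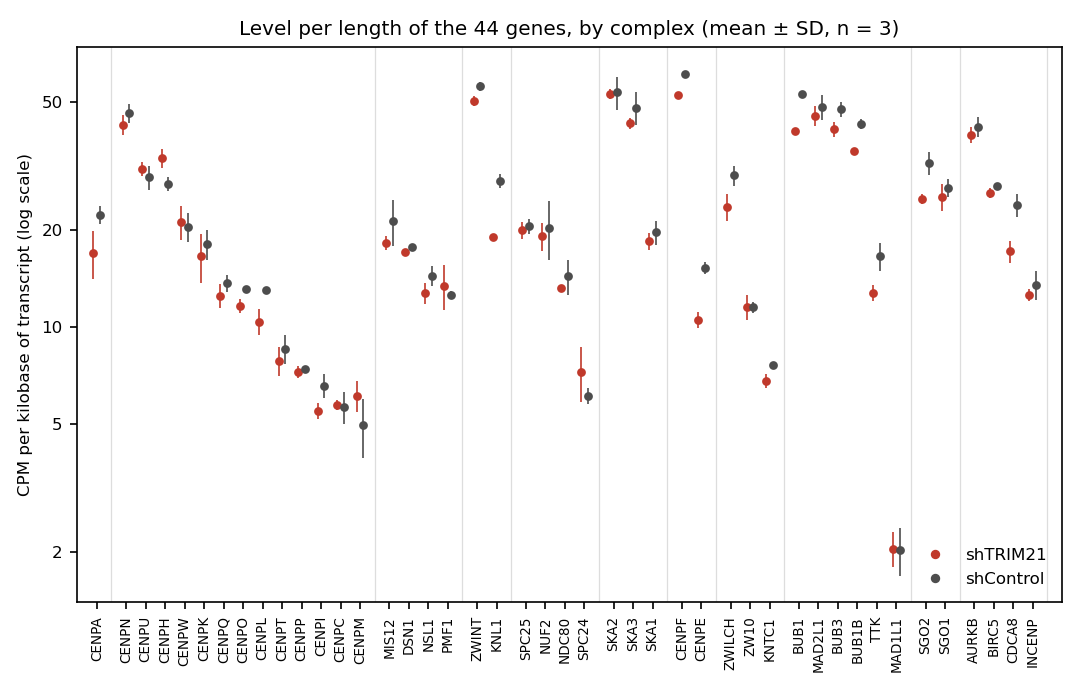
CPM per kilobase of the annotated principal transcript (log scale) for the 44 genes, by complex, as mean ± SD of 3 shTRIM21 libraries (red, left of each pair) and 3 shControl libraries (grey, right). Levels run from about 2.04 for MAD1L1 to 61.1 for CENPF in shControl, and the pairs separate most at KNL1 and CENPE.

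Other genes of the pathway were counted from 3 further lists. For comparison, 4.66% of all tested genes fell and 4.43% rose, 9.08% in all. Of 30 other kinetochore and centromere genes 3 fell and 0 rose, with a median log2 fold change of -0.07. Among them were SPDL1, which brings dynein to the kinetochore (-0.30, SE 0.09), and HJURP, the chaperone that deposits CENP-A (-0.25, SE 0.07). Of 42 genes of mitotic entry, spindle assembly and exit 16 fell and 0 rose, with a median of -0.18. ANLN, the cytokinesis scaffold anillin, showed the largest change there, at 171 ± 5.36 CPM in shTRIM21 and 325 ± 27.3 CPM in shControl (SD, n = 3 each), a log2 fold change of -0.92 (SE 0.07). MKI67, DLGAP5 and KIF11 followed at -0.44, -0.43 and -0.40.

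Of 31 genes of the G1 to S transition and replication 30 were tested. Of these 4 rose and 1 fell, with a median of 0.02, where 4.43% of all tested genes rose and 4.66% fell. MCM6, a subunit of the replicative helicase, stood at 151 ± 4.06 CPM in shTRIM21 and 102 ± 5.74 CPM in shControl, and MCM5, E2F1 and CCNE1 also rose, by 0.45, 0.45 and 0.44 on the log2 scale. UHRF1, which maintains DNA methylation at replication, fell by 0.21.

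The 7-mer AGTGGAA in the 3′ UTR was more frequent among all genes that fell than among all tested genes, and was counted in the members. In GENCODE 29 it occurred in the longest annotated 3′ UTR of 1 of the 10 members that fell, CDCA8, and of 1 of the 34 that did not pass, MIS12. It was present in 41.2% of 604 genes that fell over the whole data and in 16.2% of 11839 tested genes with a 3′ UTR. The other members that fell, KNL1 among them, did not hold it. This is 10% of the members that fell and 2.94% of those that did not pass. Both are under the 16.2% of all tested genes, and the first is under the 41.2% of all genes that fell. With 10 genes these differences were not tested. A second 7-mer, GTGTCAC, was in 0 of 10 members that fell and 1 of 34 that did not pass. It was in 10.4% of all genes that fell and 9.87% of all tested genes. The 3′ UTRs of the members that fell ran from 266 bases in BUB1 to 2154 in KNL1. Their length was not taken into account.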

How the data were processed

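HCT116 RNA depleted of ribosomal RNA was sequenced in 3 shTRIM21 and 3 shControl libraries. The files the authors deposited hold whole-number counts for each gene symbol, not normalized. The tools named in the submitters' processing notes are limma 3.52.2, edgeR 3.38.1 and TopHat2 2.1.1, and the build is hg38. How reads were counted (tool, annotation, strand, multi-mapping) is not given in the sources used here, so overlapping and antisense genes cannot be told apart. Of 28278 symbols, 14002 passed edgeR's default filter and were tested with edgeR 4.0.16 in R 4.3.3 (TMM scaling, quasi-likelihood test, no covariate), with Benjamini-Hochberg adjustment over all tested genes and a threshold of 0.05. CPM are relative to TMM-scaled library sizes, except for cell type markers, which use library totals. The SE is the fold change divided by the square root of F. Groups and replicate numbers come from the labels. Alternatives were other scalings and filters, DESeq2 1.42.0, limma-voom (limma 3.58.1), a replicate block, libraries left out, abundant or ribosomal RNA genes left out, glmTreat against a 1.2-fold change, and a spline offset for GC content and length (13450 genes). Positions, transcript lengths and 3′ UTRs come from GENCODE 29 and promoters from RefSeq (GRCh38.p14). The named genes were TRIM21, all 44 members, and of each further list up to 4 that changed most plus any that went the other way. Some items are not reported here. Members and lists were chosen with earlier results of these data known. In 5 simulated sets for this comparison over 14002 genes, with 200 changed genes each drawn from those above a minimum level, recovery was 26.3% at a 1.25-fold change, 72.2% at 1.5-fold and 90.5% at 2-fold, with 7.87% of calls false.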

Additional observations from a re-analysis of the deposited data

How the results depend on the processing

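All 10 genes that fell kept their direction in all 18 alternatives, KNL1 and CENPE kept their call in all, and BUB1, SGO2 and CDCA8 lost it only under glmTreat. The number of members that fell was 10 as reported, 6 to 9 on leaving out a single library, 9 on leaving out replicate 3 in both groups, 15 under the GC and length offset, 2 by glmTreat (which asks for more than a 1.2-fold change) and 10 or 11 under the other settings. The number that rose was 0 to 1 with 1 library left out and 1 with upper-quartile scaling or the GC and length offset (CENPH each time), against 0. Over all genes the changed numbered 602 to 1737 with 1 library left out, 174 by glmTreat and 2007 with the GC and length offset, against 1272. The median of the members ranged from -0.155 to -0.0957 with 1 library left out. Of the members that did not pass, 10 changed sign in some settings, and the cause was not tested. Among them CENPK had the value of largest size in the main fit, -0.13. ZW10 was at -0.00607 with RLE size factors, -0.00618 in DESeq2, -0.00685 in limma-voom, -0.00201 with the replicate block, -0.00554 without the 20 most abundant genes and -0.0109 without ribosomal RNA genes, and from -0.0388 to 0.0741 with 1 library left out. SKA2 was at 0.00715 with upper-quartile scaling, 0.104 without replicate 3 of both groups and 0.0329 with the offset, MAD1L1 at -0.118 and -0.0799 in the last 2 of these, NUF2 at 0.0323 without replicate 3 of both groups, and CENPP and PMF1 at 0.00344 and -0.0419 with the offset. With 1 library left out SKA2 ranged from -0.0899 to 0.0859, MAD1L1 from -0.0993 to 0.142, NUF2 from -0.181 to 0.103, CENPK from -0.233 to 0.00537, CENPW from -0.0506 to 0.111, CENPC from -0.052 to 0.12 and SPC25 from -0.0904 to 0.000643.

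Deviations from the group mean correlated at 0.096, -0.0123 and 0.0907 between libraries of replicate number 1, 2 and 3, and numbers 1 and 3 but not 2 correlated best with their own. Replicate 3 was lowest in its group on the second principal component and in ribosomal RNA in both groups. The labels do not pair the samples. In a fit with a replicate block, 11 members fell and 0 rose, and 1699 genes changed. At 22656160 to 27123657 counts per library the SE of a member was 0.058 to 0.22 on the log2 scale. Differences well above their own SE could still miss the threshold, as in CENPL (-0.33, SE 0.12), CENPH (0.27, SE 0.09) and BUB3 (-0.21, SE 0.06). The smallest change called among the members was that of CENPF, at -0.22 (SE 0.06). A member that did not pass is therefore not shown to be unchanged.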
